A study of Mus musculus with 30 samples.

Results

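Bladder was 1 of 15 tissues profiled on two-colour oligonucleotide arrays, and its 2 arrays, of 30 in all, were set against the mean of the other 14 tissues. The members were taken from the sample labels, which name the organ and the replicate number and nothing finer. The labels give all mice as C57BL/6, male, adult and 28 weeks old, and name neither a genetic change nor a treatment. The other tissues, with 2 arrays each, were stomach, small intestine and large intestine, liver, kidney and lung, heart, muscle and bone, skin and fat, and eyes, brain cortex and cerebellum. Pieces of washed and frozen tissue were homogenised whole, so each value is an average over the mucosa, the muscle coat and whatever else was in the piece. The series description takes most replicates from different animals and names a single replication for bone and fat. The paper names 2 replications, each from another animal, without an exception. What the spread between the bone and fat arrays covers is therefore unsure. On every array the tissue RNA carried Cy3 and a common reference carried Cy5. For that reference, RNA pooled from cultured mouse lines had been combined with RNA of 129 strain embryonic stem cells. The study profiled the tissues to relate how specific a gene is to some of them to how it responds in stem cells.

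The bladder stores and expels urine. Its lining, the urothelium, is a stratified epithelium whose surface cells carry plaques of uroplakin proteins, which together with tight junctions keep urine from the tissue below. Under it lies a layer of connective tissue rich in collagen, and around that the detrusor, a thick coat of smooth muscle that contracts on muscarinic and purinergic signals from nerves and relaxes on adrenergic ones. During development Sonic hedgehog from the epithelium acts on the surrounding mesenchyme, and Hedgehog and Wnt signals also pass between the layers when the adult lining is renewed.

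Every value below is a log2 ratio of tissue to reference (Cy3/Cy5) read by a single 60-base probe, so values of one probe can be compared between tissues but not with those of another probe. The first 30 bases of the probes that the main results rest on are given here as the files list them, in lower case throughout, to show what was hybridised. The first 4 read genes listed for smooth muscle and the next 2 genes listed for urothelium. The last 3 are among the genes named below for standing clear of all other arrays.
Csrp1: aatagtatcttttcacttaggaatggagaa
Actn1: gctcacttgtccatgagaatattttatgat
Tns1: gatatgaatgtatgtacactgatgctgccc
Lmod1: caatgacattggaagccaaatggaactagt
Sprr1a: gctcctgagcctcttaacattgcccaaagt
2310043J07Rik: gcaagggcactgtggtcatcattgccttct
Igfbp2: aggagttcccagttttgacacatgtattta
C130026I21Rik: aacaatcgtaaagattactaaaaacttccc
2310057J18Rik: cagggttttctgcatttattcctagtaatg
The GC content of these whole probes ran from 26.7% in Lmod1 to 53.3% in Tns1 and 2310043J07Rik.

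Across the series the median Cy3 signal of an array was between 85.7 and 175 scanner units, and 53.9% to 76.8% of the probes were well above background in Cy3. Of 25030 probes in the authors' value table, 21019 passed the filter on low values, for which 1 tissue or more had to exceed background clearly in Cy3 on both of its arrays. The 2 bladder arrays had a median SD of 0.08, lower than that of all but 1 other tissue, while their correlation ranked 9 among the 15 pairs. The widest pair of another tissue had a median SD of 0.34. Both bladder arrays lay on the same slide as both kidney arrays, so the bladder SD holds no difference between slides. The bladder arrays were scanned on the same day as both arrays of 5 other tissues and 1 array each of brain cortex and lung (14 arrays in all). Outside the comparison with kidney, a difference of slide cannot be told apart from one of tissue. The correlation between arrays of a slide, as estimated for the random block setting below, was 0.69. Symbols were known for 5049 of the tested probes (24.0%), so every rank given here holds among those only.

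Bladder was higher than the mean of the other tissues for 1658 probes and lower for 1207, that is 7.89% and 5.74% of those tested. A probe was called at an adjusted p under 0.05 in limma, Benjamini-Hochberg over all probes tested, with a log2 difference of at least 1. Of the called probes 57.9% were higher in bladder. The balance of the 2 directions depended on how the arrays were centred. With each array centred on its median in place of loess, 84.6% of the called probes were higher (2866 against 522), and the median difference of all probes was 0.14 in place of -0.09. The lower probes numbered 725 with slide as a random block and 1831 within the scan day of bladder.

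The bladder was rarely the sole tissue with a high level. It was the top tissue for 524 of the 1658 higher probes and followed in the next 2 places for another 737. Its mean exceeded that of the next tissue by at least 1 for 81 probes and by at least 2 for 19. Both bladder arrays lay above every other array for 335 of the higher probes, against 424 of all probes tested (2.02%), called or not. In the other direction both arrays lay below every other array for 75 of the lower probes, with a background of 0.695% of all probes tested. The tissue with the highest mean after bladder was skin for 279 of the higher probes (16.8%), lung for 236 (14.2%), stomach for 145 and large intestine for 137. Among the 335 that stood clear it was skin for 70 (20.9%), lung for 48, stomach for 37 and eyes for 35. The lower probes were highest in liver for 192, brain cortex for 182, muscle for 133, cerebellum for 123 and heart for 118.

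Genes listed for smooth muscle were higher in bladder without exception among those that could be read, 7 of 25 listed. All 7 were called higher, against 7.89% of all probes, with a median difference of 2.28 beside -0.09 over all probes. Acta2, Actg2, Myh11, Tagln and Cnn1 had no named probe, and of the 7 Actn1 and Des are not confined to smooth muscle. Like the other lists, this one was chosen with earlier results of these data known, so an excess over all probes can be partly built in. The mean over the list was 3.26 and 3.36 on the bladder arrays, above that of every other tissue, of which large intestine came closest with 2.56 and liver was lowest with -0.37. In whole organs a larger share of smooth muscle cells and more RNA of these genes per cell cannot be told apart.

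Csrp1, a LIM-domain protein bound to the actin cytoskeleton of smooth muscle, had 4.89 and 5.05 on the bladder arrays. The other 28 arrays ran from -3.04 in liver to 4.61 in large intestine, with a median of 0.95. The groups did not overlap, and the difference was 4.20 (SE 0.34, adjusted p = 3.29e-08). Bladder was called higher than 13 of the 14 tissues one by one. The exception was large intestine, with a mean of 4.05 ± 0.79 (SD, n = 2), 1.89-fold below bladder.

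Actn1, the non-muscle alpha-actinin that crosslinks actin filaments at adhesion sites, was at 1.91 and 1.99 in bladder. On the other arrays it ran from -3.21 in muscle to 0.37 in large intestine, with a median of -1.11. It stood clear of all of them and was called higher than each of the 14 tissues, with a difference of 3.17 (SE 0.13, adjusted p = 5.94e-12). Bladder was 3.08-fold above large intestine, the next tissue.

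Lmod1, a leiomodin that nucleates actin filaments in smooth muscle, had 3.06 and 3.07 in bladder and a median of 0.32 elsewhere, with a highest value of 2.90 in large intestine. Its difference was 2.28 (SE 0.26, adjusted p = 2.01e-06). Tns1, a tensin that ties integrins to actin, had 4.99 and 5.03 in bladder, and lung was next with 4.54 on its higher array. Both genes lay above all other arrays, each by less than 1 log2 unit. The remaining members overlapped with other tissues. Ppp1r12b, a targeting subunit of myosin phosphatase, was at 3.78 and 4.03 in bladder with 1 array of muscle above both. Desmin (Des), the intermediate filament of all muscle, was at 2.60 and 2.55 with 11 other arrays above both, and its highest tissue was bone at 3.16. Synpo2, an actin-binding protein of muscle, was at 1.59 and 1.84, and its call rested on bladder replicate 2, without which its difference was 0.97.

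**Figure D1:**
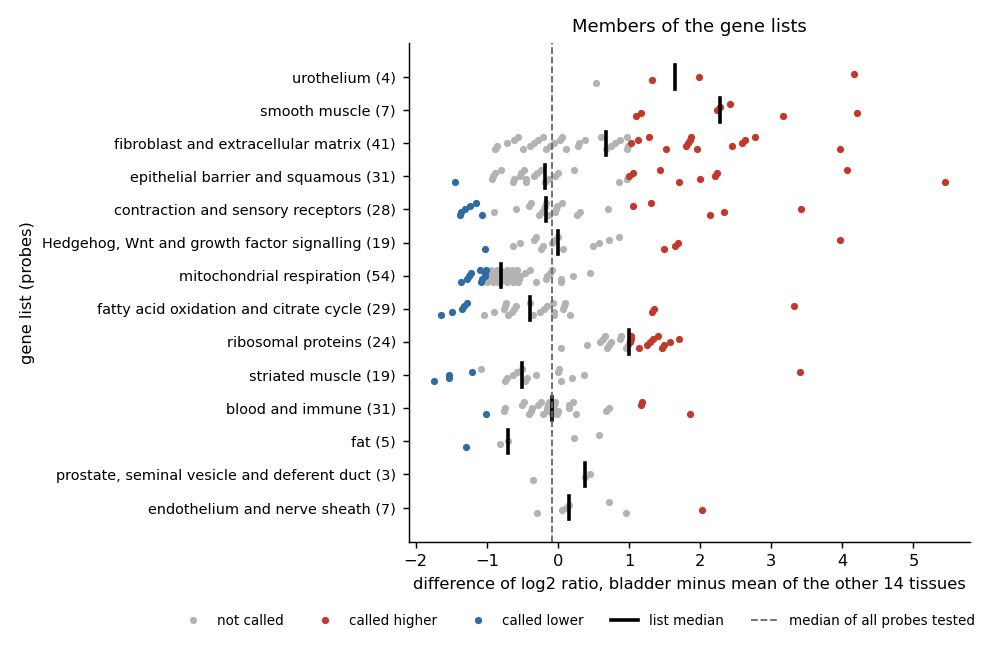
Difference of the log2 ratio between bladder and the mean of the other 14 tissues (horizontal axis) for each probe of the 14 gene lists, with the number of probes in brackets. Red points were called higher, blue points lower and grey points not called, the black bar is the median of a list and the dashed line the median of all probes tested (-0.09). All 7 smooth muscle genes lie to the right of 1, while the 54 genes of mitochondrial respiration centre on -0.80.

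Few of the genes that define urothelium had a named probe, so the organ label was checked on a thin list. Of 32 listed genes 4 were read, and 3 of them were called higher, against 7.89% of all probes, with a median difference of 1.65. Against stomach alone 1 of the 4 was called higher (7.59% of all probes) and the median difference was -0.15. The uroplakins themselves were read through a single relative. This was 2310043J07Rik (now Upk3bl, a uroplakin-like protein), at 1.57 and 1.21 in bladder. The eye arrays were higher, at 4.08 and 4.0, and the other 26 arrays were lower, with a difference of 1.98 (SE 0.18, adjusted p = 1.71e-07) and a call over 13 of the 14 tissues.

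Sprr1a, a precursor of the cornified envelope of squamous epithelia, was at 3.24 and 3.26 in bladder, and stomach was close behind with a mean of 3.0 ± 0.04 (SD, n = 2). The lowest single array, of lung, was at -2.74, and the median of the other arrays was -1.35. Bladder and stomach did not differ beyond their error (difference 0.25, SE 0.39, adjusted p = 0.750), while the difference from the mean of all 14 tissues was 4.17 (SE 0.29, adjusted p = 5.73e-09). Elf3, an ETS factor of epithelial differentiation, was at 1.33 and 1.39 with 7 other arrays above both. Its call was lost without bladder replicate 2 (difference 1.29) and with slide as a random block (difference 1.28, adjusted p = 0.104). Cd55, which protects cells from complement, was at 2.82 and 2.18 in bladder and 4.19 in small intestine, and did not pass the test (difference 0.53, adjusted p = 0.168).

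Of 41 listed genes of fibroblasts and extracellular matrix 14 were called higher and 0 lower, against 7.89% and 5.74% of all probes. The median difference was 0.68, in a list chosen with earlier results of these data known. The list mean was 0.70 and 0.64 on the bladder arrays, and lung was the single tissue above it at 0.84. Without bladder replicate 1, Col5a2 and Prelp lost their calls. Without bladder replicate 2 none of the 14 did. With slide as a random block Prelp lost its call.

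Igfbp2, a secreted protein that binds insulin-like growth factors, had 2.91 and 2.78 in bladder. The other arrays ran from -3.09 in small intestine to 2.17 in liver with a median of -1.26, so that bladder lay above all of them. Its difference was 3.97 (SE 0.22, adjusted p = 3.39e-10), and bladder was called higher than every tissue but liver, over which it was 1.63-fold higher. The collagen chain Col3a1 was at 0.83 and 0.98 in bladder against a median of -1.83, with a difference of 2.77 (SE 0.45, adjusted p = 9.78e-05). Bladder overlapped with other tissues there, 4 arrays being above both of its own, of which 1 of bone was highest at 2.19.

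Fibronectin (Fn1), which links matrix to integrins, was at -0.33 and -0.21 in bladder, below the reference but above a median of -3.26 elsewhere. Its difference was 2.63 (SE 0.51, adjusted p = 0.000543). Ddr2, a receptor for fibrillar collagen, was at 1.62 and 1.64 and lay above all other arrays, of which fat was highest at 1.15. Aebp1, a collagen-binding protein of the matrix, stood clear as well at 0.62 and 0.69 against a highest value of 0.51 in skin. Adamtsl3, an ADAMTS-like matrix protein, was at 1.15 and 1.11 and the highest other array at 0.43. Col6a3 (1.95), Adamts2 (1.87), Adamts8 (1.83), Sulf1 (1.80), Adamts17 (1.51), Col5a2 (1.28), Ltbp3 (1.13) and Prelp (1.03) were the other members called higher, each with its difference in brackets. Against lung alone the list was not higher, with 2 members called higher in bladder (6.37% of all probes), 9 lower (10%) and a median difference of -0.01.

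Genes of epithelial barriers were split. Of 31 listed genes 9 were called higher and 1 lower, against 7.89% and 5.74% of all probes, while the median difference was -0.18 and 12 members were not above background on either bladder array. The sign of that median changed with the processing, to 0.17 under median centring. Fam25c (2200001I15Rik in the files) was at 4.30 and 4.31 in bladder with skin alone above it on 2 arrays, and cerebellum lowest at -4.08. Its difference was 5.44 (SE 0.29, adjusted p = 2.17e-10). Plet1 (1600029D21Rik), a surface protein of epithelial progenitors, was at 6.05 and 5.86 with 2 other arrays above both and eyes the highest tissue at a mean of 6.25.

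Dst, whose epithelial form anchors keratins to hemidesmosomes, was at 3.35 and 3.42 in bladder and 5.16 in skin (difference 2.23, SE 0.24, adjusted p = 1.05e-06). Serpinb5, or maspin, was at 3.25 and 3.23 and 4.28 in skin. The desmosomal Pkp1 (difference 1.70), the basement membrane gene Lad1 (2.00) and the surface antigen Gpa33 (1.06) were among the other higher members. Lad1 was not called without either bladder array, and Gpa33 was not without replicate 2. With slide as a random block Lad1 and Gpa33 both lost their calls.

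The 1 member called lower was Serpinb2, a serpin with a high level in skin. It was at -1.24 and -1.39 in bladder, not above background on either array, against 5.77 in skin. The call (at least 2.23-fold, adjusted p = 0.0172) was lost without either bladder array, with slide as a random block and within the scan day of bladder (difference -0.25). Serpinb3c was at -0.06 and -0.16 in bladder and 6.52 in stomach, with a difference from the mean of all tissues of -0.80. Krt10, the keratin of cornifying skin, was at 0.52 and 0.70 in bladder and 5.44 in skin.

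The receptors and regulators of contraction and sensation moved in both directions. Of 28 listed genes 5 were called higher and 6 lower, against 7.89% and 5.74% of all probes, with a median difference of -0.17. Under median centring 6 of these 11 calls were left, those of Accn1 and of Accn2, Adra2b, Rgs4 and Rgs16 among the lower ones being lost. Rgs2, which shortens signals through the Gq proteins that drive smooth muscle contraction, was at 4.18 on both bladder arrays. Its other arrays ran from -2.27 in liver to 3.47 in lung with a median of 0.79, and bladder lay above all of them (difference 3.41, SE 0.44, adjusted p = 9.47e-06). Adora2b, an adenosine receptor, stood clear too, at 2.00 and 2.27 against a highest value of 1.96 in small intestine, with a difference of 2.33 (SE 0.16, adjusted p = 3.29e-09). Kcne4, a subunit that damps potassium channels, had 3.37 and 3.38 with lung next at 3.15, and its call was lost with the scanner's processed signals (adjusted p = 0.282). The vasodilator peptide adrenomedullin (Adm, difference 1.31) and the sodium channel Accn1 (now Asic2, 1.05) were the other 2. Accn1 was not called without either bladder array or with slide as a random block.

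The adrenergic and cholinergic genes that could be read were not among those higher. Adrb1, the beta-1 receptor, was at 1.19 and 0.98 in bladder and 5.96 in lung, and was called lower with a difference of -1.38 (SE 0.11, adjusted p = 1.57e-07). That call was lost with the processed signals (adjusted p = 0.152). Adra2b (-1.07), the signal regulators Rgs4 (-1.23) and Rgs16 (-1.30) and, without a signal above background in bladder, Ache, the enzyme that breaks down acetylcholine (at least 2.04-fold), and the sodium channel Accn2 (now Asic1, at least 2.48-fold) were called lower as well. Ache was not called without either bladder array or with slide as a random block. The muscarinic receptors, P2rx1 and Adrb3 had no named probe.

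Of 19 genes listed for Hedgehog, Wnt and growth factor signalling 4 were called higher and 1 lower, against 7.89% and 5.74% of all probes, with a median difference of -0.01. Beside Igfbp2 these were Gas1, a surface co-receptor for Hedgehog proteins, at 0.46 on both arrays and above every other array (highest 0.06 in fat, difference 1.68, SE 0.20, adjusted p = 2.86e-06). Gli2, a transcription factor at the end of the Hedgehog pathway, was at -0.81 and -0.59, with 1 array of skin above both at -0.52 and a difference of 1.65 (SE 0.22, adjusted p = 1.41e-05). Fzd7, a Wnt receptor, was at 0.94 and 1.00 with muscle next to it at 1.20. Of the ligands, Ihh was not above background in bladder, at 0.14 and 0.06, and was called lower (at least 2.03-fold). That call was lost without bladder replicate 2, under median centring and with slide as a random block. It was also lost within the scan day of bladder (difference -0.59) and without large intestine, fat and bone (-0.93). The Wnt ligands Wnt6 (difference -0.63) and Wnt10a (-0.24) were not called. Shh had no named probe.

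Mitochondrial genes were mostly below the mean of the other tissues in bladder. Of 54 listed genes of mitochondrial respiration 0 were called higher and 10 lower, against 7.89% and 5.74% of all probes. Of the 54, 50 were below the mean of the other tissues and 4 above it, while 8586 of all 21019 probes were above it. The median difference was -0.80. The median was -0.79 with replicate 1 alone as the bladder value and -0.75 with replicate 2. The list mean was 0.16 and 0.23 in bladder, under that of 13 other tissues and above lung (-0.20), and heart had the highest at 2.47. Cyc1, the cytochrome c1 of complex III, fell furthest, at -0.62 and -0.59 in bladder against a median of 0.75 and 2.37 in heart, with a difference of -1.36 (SE 0.17, adjusted p = 5.03e-06). Ndufa10 of complex I (-1.28), the iron-sulphur protein Uqcrfs1 (-1.25), Ndufs1 (-1.22) and the ATP synthase gene Atp5o (-1.09) followed, of which Ndufs1 was not called without either bladder array or with slide as a random block. These calls depended on the scaling, with 0 members called under median centring and 5 when Cy3 was used without the reference. Without bladder replicate 1 the count was 6. In direct comparison 25 members were lower than in stomach (9.20% of all probes), 38 lower than in kidney (11.2%), 3 lower than in skin (9.65%) and 0 lower than in lung (10%).

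The genes of fatty acid oxidation and the citrate cycle went both ways, with 3 of 29 called higher, near the 7.89% of all probes, 5 called lower, against 5.74%, and a median difference of -0.40. In all 8 members were called, 4 under median centring and 5 with slide as a random block. Acaa1b, a peroxisomal thiolase, was at 5.33 and 5.29 in bladder, with liver the highest tissue at 5.64, 3 other arrays above both, and a difference of 3.32 (SE 0.35, adjusted p = 1.00e-06). A near copy, Acaa1a, was at 1.38 and 1.35 and did not differ from the mean (difference -0.06), and how far the 2 probes share transcripts was not tested. Idh1, the cytosolic isocitrate dehydrogenase, differed by 1.35 and Acot1, an acyl-CoA thioesterase, by 1.32, the latter not called without either bladder array. Mdh1, the cytosolic malate dehydrogenase, was at 0.56 and 0.13 against a median of 2.15, with a difference of -1.65 (SE 0.26, adjusted p = 9.10e-05). Acsl1 (-1.5), Idh3a (-1.35) and Acat1 (-1.29) were lower as well. Idh3a lost its call without either bladder array, and with slide as a random block Acot1, Idh3a and Acat1 lost theirs.

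Ribosomal protein genes were the reverse of the mitochondrial ones. Of 24 listed, 12 were called higher and 0 lower, against 7.89% and 5.74% of all probes. All 24 had a positive difference, against 8586 of 21019 probes, and the median was 1.00. The list mean was -0.43 and -0.51 on the bladder arrays, the highest of all tissues, with skin next at -0.56 and muscle lowest at -2.33. Rps14 was at 0.09 and -0.12 in bladder against a median of -1.78, and skin was highest of the others at -0.23, with a difference of 1.70 (SE 0.23, adjusted p = 1.44e-05). Rpl36a differed by 1.5 and Rps16 by 1.46. The list was not higher than in skin, where 0 members were called and the median difference was 0.11. Under median centring 22 of 24 were called, and 10 were without bladder replicate 1 and 16 without replicate 2.

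The 20 genes named by rule among those that stood clear of all other arrays covered several functions. Of these 11 were called higher than each of the 14 tissues one by one, against 69 of all 21019 probes, and 18 than at least 13. In the settings run 0 of the 20 lost their call. The rule takes the largest differences without overlap, so these counts largely follow from it. Beside Csrp1, Sprr1a, Igfbp2, Rgs2, Actn1 and Ddr2 above, the largest difference was that of 2310057J18Rik (a RefSeq synonym is Leg1), at 8.33 and 5.44 in bladder. The highest other value was 3.56 on 1 stomach array, the second stomach array was at 0.07, and the other 13 tissues were not above background. The difference was 6.75 (SE 0.56, adjusted p = 5.11e-08), although the bladder arrays were themselves 2.89 apart. With most other tissues at background, that difference has no firm size.

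C130026I21Rik was at 2.47 and 2.62 in bladder and below the reference on all 28 other arrays, from -4.59 in cerebellum to -0.19 in fat, with a median of -2.55. Bladder was 6.78-fold above fat, the next tissue, and the difference was 5.03 (SE 0.26, adjusted p = 1.35e-10). 1700038P13Rik was at 3.38 and 3.6, and no other array exceeded 0.66, a 7.34-fold gap over lung (difference 3.57, SE 0.14, adjusted p = 2.30e-12). The long non-coding RNA gene 4833412C05Rik was at 4.32 and 4.48, with large intestine next at 2.96, and another, 2310002D06Rik, at 2.85 and 2.81 with heart next at 1.06.

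EG620393 (now Alkal1, a ligand of the ALK and LTK receptors) was at 3.08 and 2.15, with lung next at 1.08 and 10 tissues not above background. Nrp2, a co-receptor of semaphorins and VEGF, was at 1.20 and 1.16, and no other array reached the reference (highest -0.02 in lung). The secreted peptide precursor 2310040A07Rik (now Enho, adropin) was at 4.96 and 5.09, close to cerebellum at 4.72. Abcc4, an exporter of cyclic nucleotides and prostaglandins, was at 1.09 and 0.74 and at most -0.03 elsewhere, with kidney as the tissue nearest to bladder (difference from all 14 tissues 2.50, SE 0.32, adjusted p = 8.00e-06).

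The others were Aard (difference 3.76), the stress-induced gene Niban (now Niban1, 3.38), EG241084 (now the pseudogene Pced1c-ps, 3.08), 4930452B06Rik (now Cfap20dc, 2.91) and the F-box gene 1700124P09Rik (now Fbxw27, 2.50). For 4930452B06Rik bladder was 1.15-fold above stomach and not called higher than it.

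**Figure D2:**
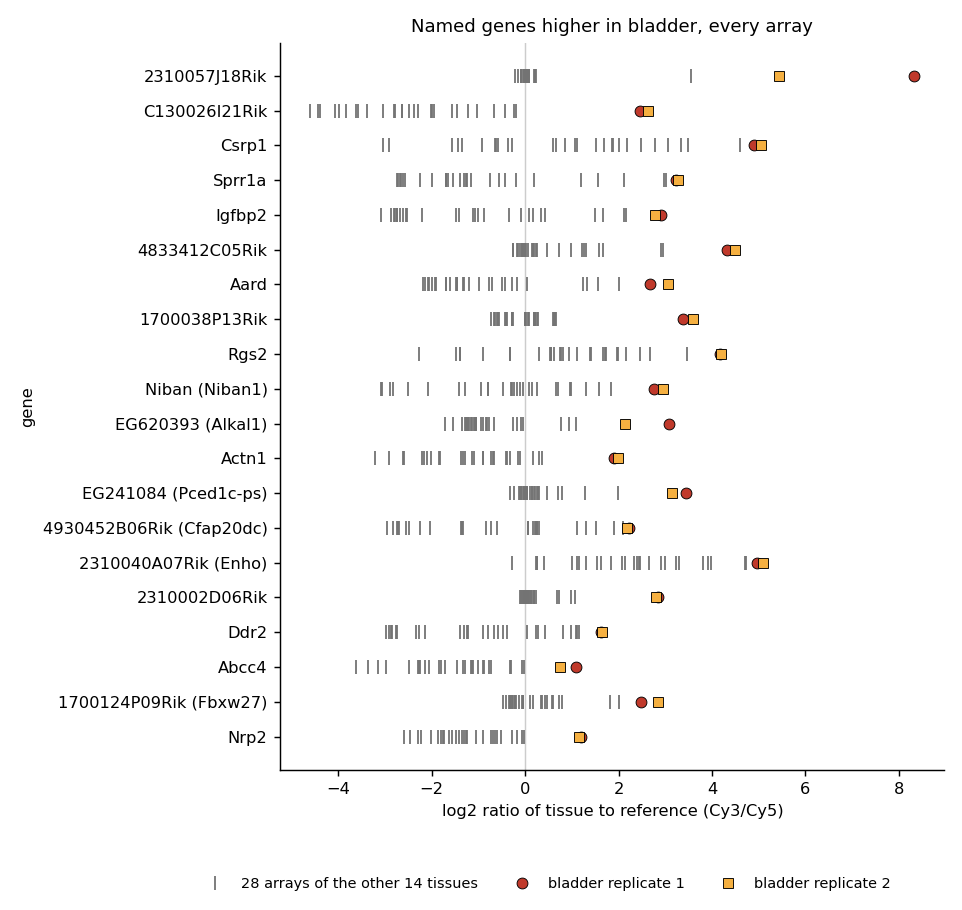
Log2 ratio of tissue to reference on every array (horizontal axis) for the 20 named genes that were higher in bladder, ordered by the difference from the mean of the other 14 tissues. Grey ticks are the 28 arrays of the other tissues and the circle and square are bladder replicates 1 and 2, which lie to the right of every tick in each row, with the widest gap between them for 2310057J18Rik (8.33 and 5.44).

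Genes lower in bladder were seldom at their lowest there. Of the 1207 lower probes bladder had the lowest mean for 240, and 304 were not above background on either bladder array. Among the 15 genes named by rule, 3 were below every other array. Mtfp1 (1700020C11Rik in the files), an inner membrane protein that drives mitochondrial fission, was at -0.88 and -0.89 in bladder, while the others ran from -0.64 in lung to 3.58 in heart with a median of 1.68. Its difference was -2.40 (SE 0.24, adjusted p = 5.28e-07), and bladder was called lower than 12 tissues one by one.

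Misp3 (2210011C24Rik) was at -2.73 and -2.58 in bladder, with the eye arrays just above it from -2.45 and lung highest at 2.80 (difference -2.40, SE 0.16, adjusted p = 2.63e-09). Nceh1 (Aadacl1), a hydrolase of cholesterol esters, was at -1.22 and -1.06, and the lowest other array, of fat, was at -0.90 (difference -2.19, SE 0.16, adjusted p = 9.58e-09). Bladder was called lower than 11 tissues for Nceh1 and 10 for Misp3.

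The remaining 12 overlapped with other tissues. Rbfox1 (A2bp1), a splicing regulator of neurons and striated muscle, had the largest difference of a named gene, -3.54 (SE 0.34, adjusted p = 2.81e-07). Its bladder arrays were at 1.4 and -0.19, and those of brain cortex, muscle and cerebellum averaged 8.36, 8.22 and 8.02. Atp1b1, the beta subunit of the sodium pump, was at 0.76 and 0.16 in bladder against a median of 3.39 and 6.14 in kidney, and 27 of the 28 other arrays were above both bladder arrays (difference -3.05, SE 0.43, adjusted p = 2.48e-05). Slc1a2 (2900019G14Rik), the glial glutamate transporter, was at 0.19 and 0.16 and at 7.28 in brain cortex, with 7 tissues not above background.

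Villin (Vil1), the actin bundler of brush borders, was not above background in bladder, at -0.81 and -0.74, against 5.46 in small intestine, and was lower by at least 4.49-fold (adjusted p = 6.47e-06). Wfdc21 (1100001G20Rik) was lower by at least 4.65-fold and Bnip5 (4930539E08Rik) by at least 4.57-fold, also without signal above background in bladder. AA467197 was at -0.13 and -0.14 and 7.81 in large intestine, and its call was lost among the tissues scanned with bladder (difference -0.62, adjusted p = 0.0670). Liver had the highest level of Dnajc22 (2810451A06Rik, difference -2.33), Tmem37 (-2.10) and the phospholipid exporter Abcb4 (-2.10). Rgcc (1190002H23Rik) differed by -2.28, though the bladder arrays, at 0.85 and -0.68, were 1 on each side of the reference. Abhd3, the last of the 15, differed by -2.35. Its call was lost without bladder replicate 2 (difference -2.25) and with slide as a random block (difference -2.24, adjusted p = 0.0790).

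**Figure D3:**
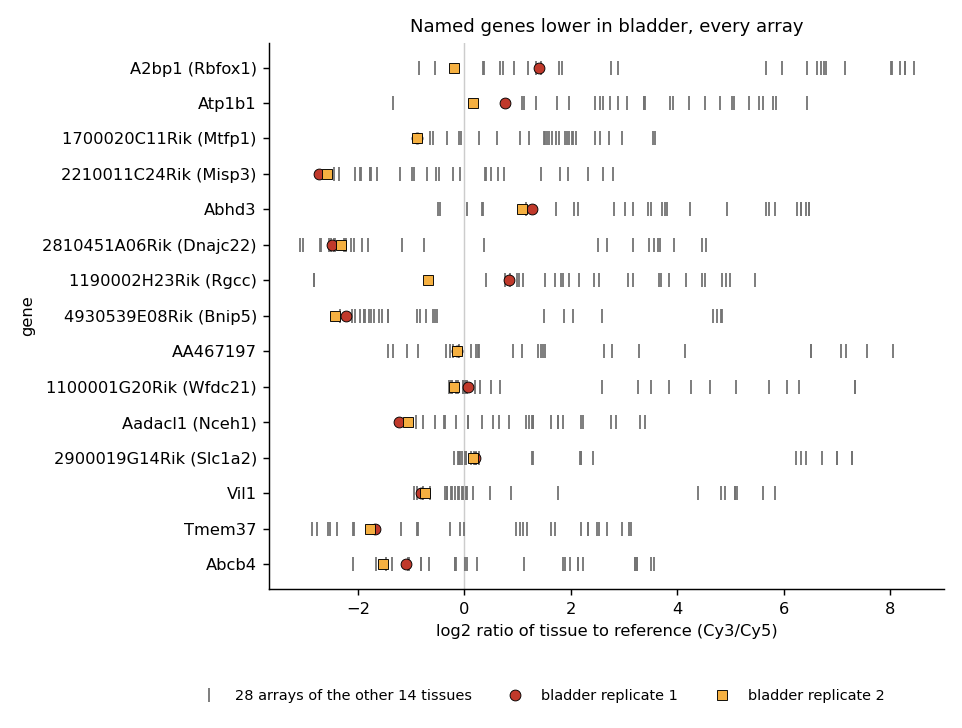
Log2 ratio of tissue to reference on every array (horizontal axis) for the 15 named genes that were lower in bladder. Grey ticks are the 28 arrays of the other tissues and the circle and square are bladder replicates 1 and 2, which lie left of every tick for Mtfp1, Misp3 and Nceh1 and among the lower ticks for the other 12.

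Markers of other cells that a piece of bladder can hold were read in whole lists. Of 31 blood and immune genes 3 were called higher and 1 lower, shares near the 7.89% and 5.74% of all probes, with a median difference of -0.09, equal to that of all probes. Their mean was -0.23 and -0.21 in bladder, with 7 tissues above it and lung highest at 0.85. The leukocyte antigen Ptprc was at -2.05 and -2.29, against 0.56 in lung. The higher ones were the decoy receptor Il1r2 at 3.10 and 2.96 (difference 1.85, skin highest at 4.86), the lymphocyte factor Ikzf2 (1.19) and Rgs1 (1.17), which was at -0.75 on one bladder array and 0.93 on the other and was not called without the latter (replicate 2, adjusted p = 0.711). The macrophage receptor Marco was the lower one, at -1.01, and was not called without either bladder array. With slide as a random block Marco and Rgs1 lost their calls.

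Of 5 fat genes 0 were higher and 1, Dgat1, lower (-1.29), against 7.89% and 5.74% of all probes, with a mean over the list of -0.27 and -0.50 in bladder and 2.11 in fat. The call of Dgat1 was lost under median centring (-0.73) and within the scan day of bladder (-0.37). Of 3 genes of the prostate, seminal vesicle and deferent duct, which lie beside the male bladder, 0 were called, and their mean of 0.78 and 0.61 was exceeded in 5 tissues. Of 7 endothelial and nerve sheath genes 1 was higher, against 7.89% of all probes, namely the endothelial adhesion molecule Sele, at 1.87 and 2.13 with no other array above 0.63, a difference of 2.02 (SE 0.13, adjusted p = 1.49e-09) and 10 tissues not above background.

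Of 19 genes of striated muscle 4 were lower and 1 higher, against 5.74% and 7.89% of all probes, and the list differed between the bladder arrays. Its mean was 0.67 on replicate 1 and 0.07 on replicate 2, far below the 3.84 of muscle. The higher member was the cardiac troponin gene Tnnt2, which was level on both arrays at 3.69 and 3.63, between heart at 3.98 and a median of 0.14 elsewhere, with a difference of 3.41 (SE 0.34, adjusted p = 4.51e-07). Bladder and lung did not differ beyond their error for this gene (difference 0.14, SE 0.46, adjusted p = 0.904). The lower members were Tnni1 (-1.74), Cacna1s (-1.53), Dusp27 (-1.53) and Tmem182 (-1.20). Of these 4 calls 3 were lost under median centring (Tnni1, Dusp27 and Tmem182) and 3 within the scan day of bladder (Cacna1s, Dusp27 and Tmem182), a set without the muscle and bone arrays. Tnni1 was not called without either bladder array, nor Tmem182 without replicate 2. With slide as a random block Tnni1 and Tmem182 both lost their calls.

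The 2 bladder arrays were compared probe by probe. Their median absolute difference was 0.12, and 1.51% of the 16689 probes above background on at least 1 of them were 1 or more apart. Nearly all of these were higher on replicate 1, 239 against 13. Striated muscle genes were among them, 6 of 19 against 0 of 7 smooth muscle and 0 of 24 ribosomal genes. They were Tmem182 (2.24 against 0.31), the alpha-actinins of striated muscle Actn2 (2.41 against 0.53) and Actn3 (0.14 against -1.79), the myosin light chain Myl1 (1.80 against 0.03), myostatin (Mstn, 1.93 against 0.53) and the calcium channel Cacna1s (-0.42 against -1.44). Bladder replicate 1 thus held 6 striated muscle genes at 2-fold or more of the level on replicate 2. Among all 239 probes, muscle was the highest other tissue for 7.53%, against 10.9% of all probes above background, heart for 12.6% against 7.11%, skin for 12.1% against 7.18% and fat for 8.37% against 4.38%. The smooth muscle genes differed between the arrays by at most 0.25.

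Among all named probes the largest gaps were those of 1190003K10Rik (now Fam240b, 4.22 against 0.19), 1700016M24Rik (now Mroh4, 2.90 against -0.24) and 2310057J18Rik. Next came a pair of muscle genes, 4833419K08Rik (now Myoz3, 2.35 against -0.05) and 2310042D19Rik (now Perm1, 2.24 against 0.21). In the other direction Rgs1 differed by 1.67, while Wasl (0.48 against 1.29) and the prostaglandin synthase Ptgs2 (-2.90 against -2.21) differed by less than 1. Of the probes called higher in bladder 23 (1.39%) were 1 or more apart on the 2 arrays, and of those called lower 53 (4.39%).

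**Figure D4:**
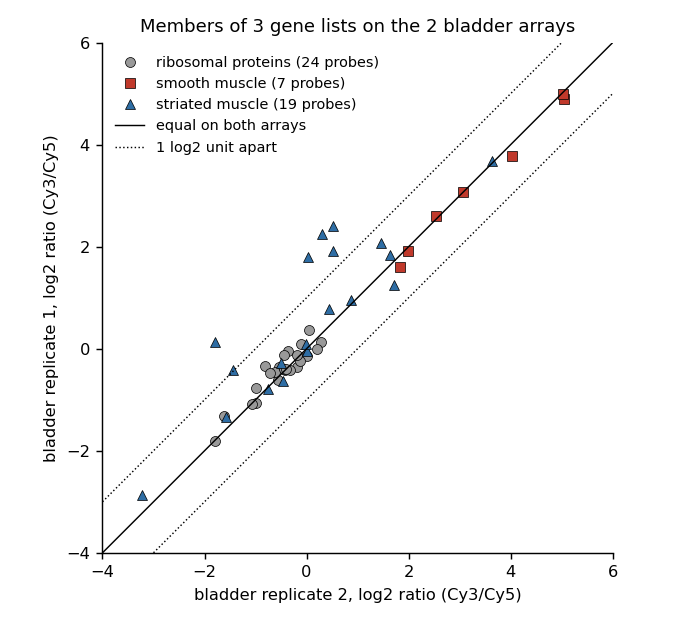
Log2 ratio on bladder replicate 1 (vertical axis) against replicate 2 (horizontal axis) for the genes of 3 lists, with the line of equal values and dotted lines 1 log2 unit to each side. The 7 smooth muscle and 24 ribosomal genes lie between the dotted lines, while 6 of the 19 striated muscle genes lie above the upper one.

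Likeness between arrays was described by Pearson r across probes, which share the reference and the array design and are not independent. The bladder arrays had an r of 0.971 with each other, ninth among the 15 replicate pairs. The nearest other tissue was stomach with a mean r of 0.690, followed by lung at 0.688, skin at 0.651 and fat at 0.643, and the order of the first 2 is within the range of single arrays (0.671 to 0.715 for stomach, 0.677 to 0.702 for lung). Lung came first with the Cy3 level alone. Liver was farthest at 0.431, and under median centring and in the value table brain cortex was. The arrays of fat and of large intestine were unequally near to bladder, 0.586 to 0.706 for fat and 0.505 to 0.636 for large intestine. With large intestine, fat and bone left out, 1767 probes were higher and 1414 lower.

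**Figure D5:**
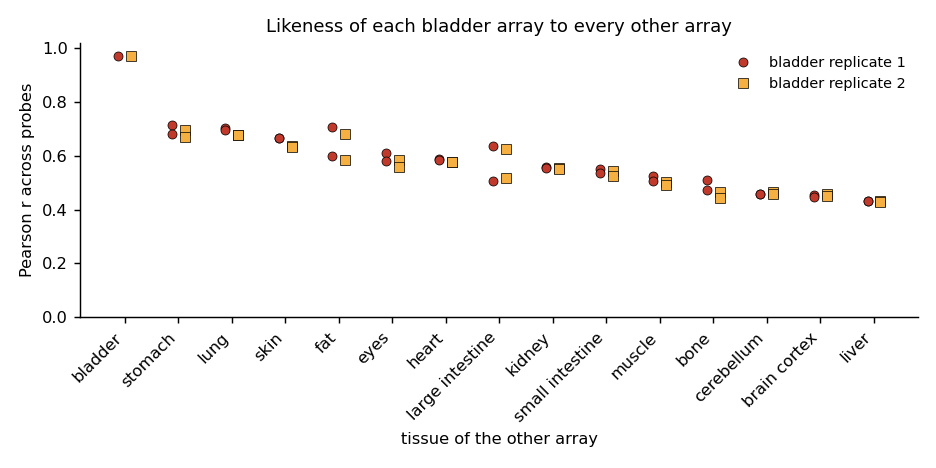
Pearson r across probes between each bladder array (circles, replicate 1, squares, replicate 2) and every other array, by tissue of the other array in falling order of mean r. The pair of bladder arrays stands at 0.971, and the other tissues run from 0.690 in stomach to 0.431 in liver.

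Bladder was also compared directly with 4 single tissues, to see against what its genes stood out. These comparisons share the bladder arrays and so are not independent of each other. Against stomach, which has a mucosa over a smooth muscle wall, 1595 probes were higher in bladder (7.59%) and 1934 lower (9.20%). The balance turned under median centring, from 45.2% to 70.7% of the called probes being higher. Smooth muscle was still higher in part, with 4 of 7 genes called (Csrp1, Actn1, Tns1 and Ppp1r12b). Lmod1 (difference 0.72, adjusted p = 0.152), Synpo2 and Des were not called. Barrier genes were lower than in stomach, 14 of 31 against 1 higher. C130026I21Rik had the largest difference towards bladder, 6.27, with -3.63 and -3.83 on the stomach arrays, followed by 2310057J18Rik (5.07) and Aard (4.51). Towards stomach 1810007E14Rik (now Phgr1) was at 0.11 and 0.07 in bladder, not above background, and at 7.86 and 7.34 in stomach, at least 182-fold apart. AA467197 differed by -6.65 and Serpinb3c by -6.63.

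Against skin, a stratified epithelium over connective tissue, 1558 probes were higher in bladder (7.41%) and 2028 lower (9.65%), a balance that median centring turned from 43.4% to 81.8% higher. Striated muscle genes made a large contrast here, 14 of 19 being lower in bladder with a median difference of -3.24. Barrier genes were lower as well, 13 of 31 against 4 higher, with a median difference of -0.86. Sptssb (1110032A04Rik in the files), a subunit of the enzyme that starts sphingolipid synthesis, was at 5.55 and 5.28 in bladder and not above background in skin, at least 41.8-fold apart, and 0610040J01Rik differed by 5.12. Serpinb2 was at least 86.0-fold and Wfdc21 (1100001G20Rik) at least 75.6-fold lower in bladder, and Rbfox1 differed by -5.63.

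Against lung 1338 probes were higher in bladder (6.37%) and 2112 lower (10%), that is 38.8% higher against 48.6% under median centring. Fam25c, at -2.93 and -3.39 on the lung arrays, differed by 7.47, and Sprr1a by 5.74. Smooth muscle was higher than in lung for 6 of 7 genes, all but Tns1 (difference 0.48, adjusted p = 0.212). Immune genes were lower, 13 of 31 against 2 higher. The long non-coding RNA 1600029I14Rik was not above background in bladder and at least 82.9-fold lower than in lung, 1700021K14Rik differed by -5.62, and Fam162b (9430073N08Rik) was at least 35.2-fold lower.

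Kidney shared its slide with bladder, so no difference between slides enters this pair. Of the probes tested 2489 were higher in bladder (11.8%) and 2349 lower (11.2%). Median centring changed the share of called probes that were higher from 51.4% to 62.3%. Smooth muscle genes were higher for 5 of 7, with Csrp1 at 5.97, while Tns1 (0.73) and Synpo2 (0.86) stayed below the threshold of 1. Of the matrix genes 18 of 41 were higher and 1 was lower, and of the ribosomal genes 19 of 24 were higher. 9530066K23Rik (now Nipal4), a magnesium transporter of epithelia, was at 5.43 and 5.75 in bladder and -0.51 and -0.67 in kidney. Towards kidney 1700011H14Rik (now ccdc198) differed by -7.76, and Spp2 and Acot12, not above background in bladder, were at least 195-fold and 132-fold lower.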

How the data were processed

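RNA of 15 adult mouse tissues was measured on 30 two-colour arrays. Per the file headers the authors extracted spots with Agilent Feature Extraction 9.5.1.1, and the deposited spot files hold mean and background intensity of both channels in scanner units, beside a log10 ratio and flags. The deposited value table is on a log10 scale. Set against the spot files over 11596 bright probes it followed log10 of the processed Cy3 signal (slope 0.998) minus the deviation of the reference on that array (slope -0.997, R² 0.9999), with column medians of 2.50 to 2.65. It served here to choose probes and as an alternative.

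Normexp background correction used an offset of 50, control and outlier spots (475 in all) were removed, each array was normalised by loess, and log2(Cy3/Cy5) was averaged over the spots of a probe. No spot was saturated. Symbols came from the study's probe lists, updated through RefSeq (GRCm38.p6), and no value was taken from those lists. The linear model was that of limma 3.58.1 under R 4.3.3 (lmFit and eBayes, 1 coefficient per tissue, 15 residual degrees of freedom), two-sided, and 167 probes lacking a value on some array were kept. The number of arrays limits the precision, and p-values measure the spread between these samples. A bound ("at least N-fold") is the smaller of the fold of the mean ratios and a fold of the Cy3 level, which sets the mean of the brighter group against the higher of a dim probe's own signal and the lowest signal well above background on its arrays. The fit was tested on simulated data with independent errors on each array and no slide effect, so the calls were not tested under shared slides.

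Genes were named by rule: the 20 largest higher differences among called probes with both bladder arrays above all others, the 15 largest lower ones, the 3 largest in each direction per pair of tissues, the 6 largest in each direction between the bladder arrays, and members of 14 gene lists. The members and lists were chosen with earlier results of these data known. Alternatives were median centring, no background correction, processed signals, the Cy3 level alone, the value table, other filters, blocks, weights and each array left out. Same-numbered arrays deviated together in 33 of 105 pairs of tissues (correlation of deviations over 0.1) and in 8 of the 14 that hold bladder (-0.06 to 0.24). These correlations cannot settle whether same-numbered arrays came from the same mouse, and the samples were not treated as paired. Some list members are counted but not reported here by name.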

Additional observations from a re-analysis of the deposited data

Results flagged for a closer look

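Of the 16976 probes of the array outside the authors' value table, 13616 could be tested, and 715 of these were higher and 502 lower in bladder by the same limma contrast (5.25% and 3.69%). These probes enter no comparison above and are listed because part of the measured signal lies there.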

How the results depend on the processing

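No named gene with a call changed direction under any alternative run. Over all settings 5923 values of named genes kept their side of the threshold and 166 fell short of it. In place of 1658 higher and 1207 lower probes, median centring gave 2866 and 522, a threshold of 2 on the log2 scale 491 and 119, and a call against each of the 14 tissues singly 69 and 3. Lower probes numbered 725 with slide as a random block and 1831 within the scan day of bladder, a setting that, like the fit without large intestine, fat and bone, was chosen after seeing the data. With a threshold of 2 the probes that differed numbered 1142 against stomach, 1267 against skin, 1321 against lung and 2027 against kidney. The random block gave 2350 against skin in place of 3586. Median centring turned the share of higher probes from 45.2% to 70.7% against stomach, from 43.4% to 81.8% against skin and from 38.8% to 48.6% against lung. Against kidney it went from 51.4% to 62.3%.

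The number of called list members fell under median centring from 11 to 6 for contraction and sensory receptors, from 10 to 0 for mitochondrial respiration and from 8 to 4 for fatty acid oxidation, and rose from 12 to 22 for ribosomal proteins. With the Cy3 level alone it was 5 for mitochondrial respiration, and with slide as a random block 5 for epithelial barrier genes and 5 for fatty acid oxidation. The medians of the epithelial and the Hedgehog and Wnt lists changed sign between settings. The cause of these shifts was not tested.

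Leaving out 1 array at a time gave 1449 to 1724 higher and 908 to 1257 lower probes, 2678 to 3743 that differed from stomach, 2928 to 3802 from skin, 2926 to 3649 from lung and 4295 to 5027 from kidney. Called list members ranged from 6 to 13 for mitochondrial respiration, with 6 without bladder replicate 1 and 13 without fat replicate 1. With the replicate number as a block, though it is not known to pair the samples, 1659 probes were higher and 1208 lower. With 2 arrays a tissue the spread is poorly known for each probe alone, and probes near background have no firm ratio.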
